A study of Mus musculus with 4 samples.

Results

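The enzymes that make UDP-GlcNAc, place it on proteins as O-GlcNAc and take it off again were followed in mouse embryonic stem cells (mESC) that had lost Ogt. The group held 10 genes, listed by symbol for their role in this pathway with earlier results of these data known (Ogt, Oga, Gfpt1, Gfpt2, Gnpnat1, Pgm3, Uap1, Uap1l1, Nagk and Amdhd2), and all 10 were found among the 25239 gene symbols of the deposited count tables. The cells carried Ogt alleles flanked by loxP sites (genotype label Ogt fl/fl) in every library, controls included. The Ogt iKO group held 2 libraries from cells given 4-hydroxytamoxifen (4-OHT), a ligand that switches on tamoxifen-dependent recombinases, for 6 days. The control group held 2 libraries from cells of the same genotype cultured without 4-OHT. All cells grew on mitomycin-treated fibroblast feeders with LIF and serum replacement and were sorted by flow cytometry. The treated cells alone were also gated for a yellow fluorescent protein, so the gate, the ligand and the loss of Ogt cannot be told apart in this comparison. The labels do not name the recombinase, its promoter or the number of clones, and they do not say whether the replicates were separate cultures, so p-values measure the spread between these libraries only. The series asked how loss of OGT alters DNA methylation and the expression of transposable elements. Here the question was how the transcripts of the O-GlcNAc enzymes themselves and of their substrate pathway differed between the groups.

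O-GlcNAc is a single N-acetylglucosamine on serine or threonine of nuclear and cytoplasmic proteins. One enzyme, OGT, adds it and another, OGA, removes it. The donor, UDP-GlcNAc, is the end product of the hexosamine pathway. GFPT enzymes join fructose-6-phosphate with the amide of glutamine, GNPNAT1 acetylates the product, PGM3 moves its phosphate and UAP1 attaches UDP. NAGK feeds salvaged N-acetylglucosamine into the middle of this route, and AMDHD2 removes the acetyl group again and so runs against it. Cells are known to adjust OGT and OGA to one another when O-GlcNAc levels are disturbed, in part through introns that are retained in both transcripts. The tables count reads per gene, so splicing was not analysed here.

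The 4 libraries held between 14668489 and 16504204 counts. Of the marker lists, those of stem cells summed to 4316 and 4304 CPM (counts per 1000000 counts, scaled by the trimmed mean of M-values, TMM) in the controls and to 2361 and 2682 CPM in Ogt iKO replicates 1 and 2. The 12 fibroblast markers summed to 2520 CPM in Ogt iKO replicate 1, which stood apart from the 721, 913 and 1037 CPM of Ogt iKO replicate 2 and the controls, and none of these markers was at 0 in any library. Epcam, which encodes the sorted antigen CD326, had 4452 to 5376 counts, and Thy1, which encodes CD90, had 138 to 437. By the labels CD90.2 picked out the stem cells and CD326 served to leave out feeders, although CD326 is known as an epithelial and stem cell antigen, so which fraction each stain selected could not be settled. The 6 primitive endoderm markers summed to 83.8 and 70.3 CPM in Ogt iKO, against 19.7 and 15.9 CPM in the controls. By the test given below (adjusted p under 0.05), 4 of these 6 were called higher, and 1 of the others lay below both controls. Of the 10 stem cell markers 1 was called higher and 8 lower. Over all genes tested, 33.2% were called higher and 32.0% lower. Fewer cells of a type and less RNA per cell cannot be told apart in such bulk samples. The part of the stem cell and endoderm marker differences in the results on the 10 genes was not tested.

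All 10 genes passed the test between the groups, with 4 higher and 6 lower in Ogt iKO (edgeR's quasi-likelihood test, adjusted p under 0.05 with Benjamini-Hochberg adjustment over 14525 genes). Across all genes tested, 65.3% passed, 33.2% as higher and 32.0% as lower, so to be called was the common case in this comparison. The 2 groups did not overlap for any of the 10 genes (4 higher, 6 lower), as for 83.2% of all genes tested (42.3% higher, 40.9% lower). The median log2 fold change of the 10 genes was -0.38, against 0.024 over all genes tested. Without Ogt iKO replicate 1, the library with the most fibroblast marker counts, the calls were again 4 higher and 6 lower. The log2 fold changes were then -2.97 for Ogt, -0.49 for Gnpnat1, -0.50 for Pgm3, -0.31 for Uap1, 1.26 for Uap1l1 and 1.02 for Nagk, and those of the other 4 genes are given with their values.

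**Figure D1:**
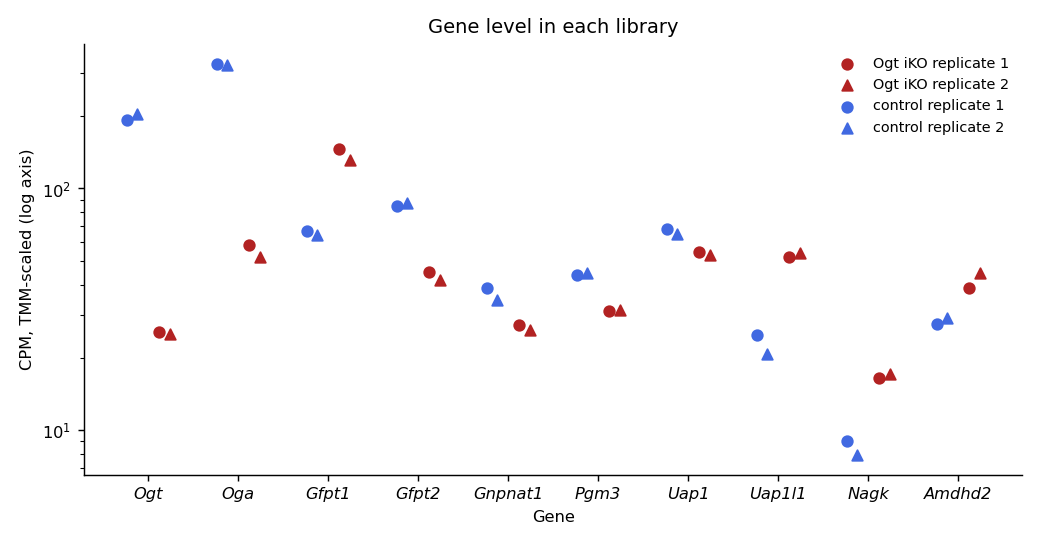
Level of each of the 10 genes in each library, as TMM-scaled CPM on a log axis; red marks Ogt iKO and blue marks control, circles replicate 1 and triangles replicate 2. Ogt and Oga lie at 191 to 328 CPM in the controls and at 25.1 to 58.6 CPM in Ogt iKO, while Gfpt1, Uap1l1, Nagk and Amdhd2 lie above their controls.

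Ogt lies on chromosome X from 101640011 to 101684351 (GRCm38, plus strand). It had 437 and 389 counts in Ogt iKO replicates 1 and 2, and 2963 and 3108 in control replicates 1 and 2. On the CPM scale these were 25.6 and 25.1 in Ogt iKO and 191 and 203 in control. The treated libraries were close to each other and far below both controls. The fall was 7.78-fold (log2 fold change -2.96, SE 0.068, adjusted p 2.49e-07, edgeR), and 16 of the 14525 genes tested fell further. The count covers the whole gene, including any exon outside the deleted part, so the reads that were left do not measure intact transcript.

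Oga, the gene of the enzyme that removes O-GlcNAc, lies on chromosome 19 from 45750255 to 45783644 (minus strand). It had 1002 and 810 counts in Ogt iKO and 5084 and 4986 in control, or 58.6 and 52.2 CPM against 328 and 325 CPM. Both Ogt iKO libraries lay far below the controls, and the fall was the next largest of the group after that of Ogt. Oga fell 5.89-fold (log2 fold change -2.56, SE 0.070, adjusted p 2.49e-07, edgeR), and 38 genes of all those tested fell further. Without Ogt iKO replicate 1 the log2 fold change of Oga was -2.64. Of its exon length, 9.15% lies under an exon of Gm15491 on the other strand, and the strand that was counted is not given in the sources used here. Of the distinct 50-base stretches in Oga transcripts (GENCODE), 1.64% also occur in transcripts of other genes.

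The ratio of the counts of the 2 genes was read next. As said above, the Ogt reads left in Ogt iKO do not measure intact transcript. They were divided by the full exon length all the same, so the ratio is not a balance of intact transcripts. Per exon length, the ratio of Oga to Ogt was 2.05 and 1.86 in Ogt iKO replicates 1 and 2, against 1.54 and 1.44 in the controls. Every Ogt iKO library was above both controls, and the mean ratio was 1.32 times that of the controls. In this design, 2 libraries against 2, an exact permutation test cannot go below a two-sided p of 0.333, and no other test of the ratios was run, so they are given as a description.

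The promoters of these 2 genes are shown because the genes fell together. They are taken from RefSeq (GRCm38.p6), run from 250 bases before to 50 bases after the start, 5′ to 3′ on the strand of the gene, and capitals mark each GGGCGG on either strand, the letters of a GC box. The Ogt window is chrX:101639801-101640100 (plus strand), the first of 2 windows listed for that gene, and the Oga window is chr19:45783504-45783803 (minus strand).
Ogt: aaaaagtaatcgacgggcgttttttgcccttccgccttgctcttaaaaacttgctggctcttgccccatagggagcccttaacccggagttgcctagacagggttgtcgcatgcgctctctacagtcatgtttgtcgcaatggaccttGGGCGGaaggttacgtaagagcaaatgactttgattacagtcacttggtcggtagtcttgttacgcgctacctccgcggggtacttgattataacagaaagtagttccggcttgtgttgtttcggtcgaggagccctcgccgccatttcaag
Oga: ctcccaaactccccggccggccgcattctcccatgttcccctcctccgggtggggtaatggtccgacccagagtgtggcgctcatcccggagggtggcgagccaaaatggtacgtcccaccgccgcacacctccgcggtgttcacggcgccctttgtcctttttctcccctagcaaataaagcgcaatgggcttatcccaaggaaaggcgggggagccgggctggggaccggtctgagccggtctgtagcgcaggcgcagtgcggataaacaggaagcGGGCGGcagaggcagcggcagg
Each window held 1 GC box. The CpG ratio, observed over expected from the base composition, was 1.03 for Ogt and 0.81 for Oga, where the median of 32851 promoter windows was 0.38. Of all windows, 4.59% had a higher ratio than Ogt and 19.9% a higher ratio than Oga. The second Ogt window, chrX:101639968-101640267, had 1 GC box and a ratio of 0.80, which 20.9% of windows exceeded, so that the order of Ogt and Oga depended on the start taken.

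Genes on each side of Ogt and Oga were read next, since the series also asks about effects in cis. Upstream of Ogt, Nono, which encodes an RNA-binding protein of paraspeckles, had 4494 and 4159 counts in Ogt iKO and 6388 and 6446 in control and fell (log2 fold change -0.65, SE 0.054, adjusted p 2.04e-05, edgeR). Taf1, the nearest tested gene on that side and the gene of the largest TFIID subunit, had a log2 fold change of -0.06 and did not pass the test (adjusted p 0.475, edgeR). On the other side Gm4779 did not pass (-0.18) and 8030474K03Rik was lower (-0.57, adjusted p 0.0319, edgeR), at 98 and 84 counts against 147 and 108. Beside Oga, Npm3 (-0.07), Kcnip2 (-0.13) and Armh3 (-0.13) did not pass the test. Fgf8, a growth factor gene, was higher (0.50, adjusted p 0.0186, edgeR), at 209 counts in both Ogt iKO libraries and 152 and 127 in the controls.

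The genes whose 4 values were most like those of Ogt and Oga were sought among the 8496 genes whose mean log2 CPM was 4 or more, by the distance between log2 CPM values centred on each gene's mean. Nearest to Ogt was Amt, which encodes the aminomethyltransferase of glycine cleavage, with 13.7 and 15.7 CPM in Ogt iKO and 110 and 113 CPM in control (distance 0.162). Lmnb2, the lamin B2 gene (0.276), and Etv4, an ETS transcription factor gene (0.295), followed. Nearest to Oga were 1700037H04Rik (0.044), B4galnt4, a glycosyltransferase gene (0.143), and Lmnb2 (0.159). Ogt and Oga were 0.412 apart from each other. With 4 libraries in 2 groups, this distance is set mostly by the size of the difference between the groups.

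**Figure D2:**
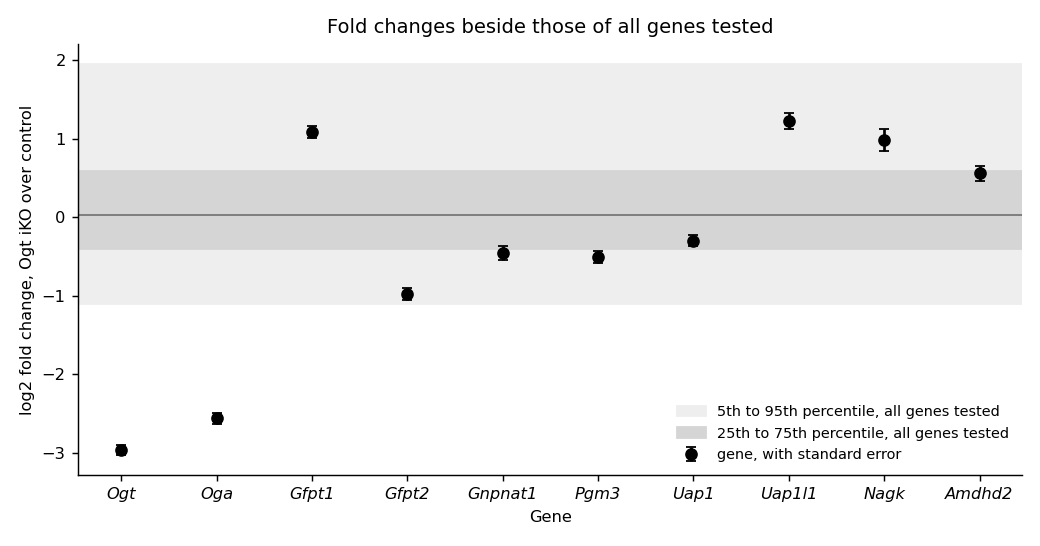
Log2 fold change of each gene, Ogt iKO over control, with its standard error from the edgeR fit of 4 libraries; the light and dark bands hold the 5th to 95th and the 25th to 75th percentiles of all genes tested, and the line is their median (0.024). Ogt (-2.96) and Oga (-2.56) lie below both bands, and Uap1 (-0.30) and Amdhd2 (0.56) lie within the dark band.

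The entry step of the hexosamine pathway is catalysed by 2 related enzymes, and their genes went in opposite directions. Gfpt1 (chromosome 6, 87042846 to 87092207, plus strand) had 2501 and 2042 counts in Ogt iKO and 1035 and 987 in control, or 146 and 132 CPM against 66.9 and 64.3 CPM. Both Ogt iKO libraries were above both controls. Gfpt1 rose 2.12-fold (log2 fold change 1.08, SE 0.072, adjusted p 6.64e-06, edgeR). Gfpt2 (chromosome 11, 49794155 to 49838620, plus strand) had 769 and 649 counts in Ogt iKO and 1305 and 1335 in control, or 45.0 and 41.8 CPM against 84.3 and 87.0 CPM. It fell 1.97-fold (log2 fold change -0.98, SE 0.075, adjusted p 1.35e-05, edgeR), and its groups did not overlap either. The transcripts of the pair shared no stretch of 50 bases: of 10113 distinct 50-base stretches in Gfpt1 transcripts and 5582 in Gfpt2 transcripts (GENCODE), 0 occur in transcripts of another gene. Without Ogt iKO replicate 1 the log2 fold changes were 1.01 for Gfpt1 and -1.03 for Gfpt2.

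The leading transcript of the pair therefore differed between the groups. Per exon length, the ratio of Gfpt2 to Gfpt1 was 3.01 and 3.23 in the controls and 0.735 and 0.760 in Ogt iKO, 4.18 times lower in the mean. Gfpt2 made up 75.1% and 76.4% of the summed level of the pair in control, and 42.4% and 43.2% in Ogt iKO. The sum itself was 36.0 and 32.9 CPM per kb in Ogt iKO and 38.1 and 38.7 CPM per kb in control. This order of the sums depended on the exon length taken for each gene. With exons of every annotated transcript, a choice made after seeing the data, the sums were 22.6 and 20.6 in Ogt iKO and 21.7 and 22.0 in control, and the groups overlapped. The share of Gfpt2 stayed lower in Ogt iKO on that length too (35.6% and 36.4%, against 69.4% and 70.9%).

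The promoter windows of the pair are printed because the paralogs changed in opposite directions, with GC boxes in capitals as above. The Gfpt1 window is chr6:87042596-87042895 and the Gfpt2 window chr11:49793905-49794204, both on the plus strand.
Gfpt1: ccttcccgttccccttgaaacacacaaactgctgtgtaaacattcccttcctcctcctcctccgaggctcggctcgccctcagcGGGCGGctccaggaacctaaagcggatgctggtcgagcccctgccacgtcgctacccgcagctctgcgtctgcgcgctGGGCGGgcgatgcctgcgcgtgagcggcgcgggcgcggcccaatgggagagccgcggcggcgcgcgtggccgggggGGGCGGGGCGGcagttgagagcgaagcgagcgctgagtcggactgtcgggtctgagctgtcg
Gfpt2: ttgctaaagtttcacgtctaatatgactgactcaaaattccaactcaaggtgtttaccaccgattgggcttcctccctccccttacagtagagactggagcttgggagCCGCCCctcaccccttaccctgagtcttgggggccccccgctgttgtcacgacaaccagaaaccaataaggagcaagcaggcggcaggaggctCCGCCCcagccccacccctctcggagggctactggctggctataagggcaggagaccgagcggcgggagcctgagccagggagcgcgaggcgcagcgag
Gfpt1 held 4 GC boxes, of which 2 overlap, and had a CpG ratio of 1.03. Gfpt2 held 2 and had a CpG ratio of 0.55, which 39.2% of all windows exceeded.

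The genes of the next 2 steps, Gnpnat1 and Pgm3, were lower in Ogt iKO. Gnpnat1 (chromosome 14, 45376421 to 45388987, minus strand), whose product acetylates glucosamine-6-phosphate, had 27.4 and 25.9 CPM in Ogt iKO and 38.6 and 34.5 CPM in control. It fell 1.37-fold (log2 fold change -0.46, SE 0.091, adjusted p 0.00228, edgeR). In GENCODE's basic models 94.04% of its exon length lies under exons of Styx on the other strand, whereas the RefSeq spans of the 2 genes share only 464 bases. Which models were counted is not given in the sources used here, and reads from shared bases could not be told apart if strand was not used. Of its 50-base stretches, 6.23% also occur in transcripts of other genes. Styx had 54 and 32 counts in Ogt iKO and 26 and 25 in control, far fewer than the 402 to 598 counts of Gnpnat1. Pgm3 (chromosome 9, 86552476 to 86571878, minus strand), the gene of the mutase that yields N-acetylglucosamine-1-phosphate, had 31.1 and 31.3 CPM in Ogt iKO and 44.1 and 44.7 CPM in control. The replicates were nearly equal in each group, and Pgm3 fell 1.42-fold (log2 fold change -0.51, SE 0.077, adjusted p 5.11e-04, edgeR). Exons of Dop1a on the other strand cover 38.51% of its exon length, and Dop1a rose (705 and 574 counts against 320 and 342, log2 fold change 0.87), the opposite direction to Pgm3.

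The last step, which makes UDP-GlcNAc, again has a pair of related genes that changed in opposite directions. Uap1 (chromosome 1, 170141223 to 170174964, minus strand) encodes the pyrophosphorylase and had 54.7 and 53.1 CPM in Ogt iKO and 67.7 and 64.9 CPM in control. It fell 1.23-fold (log2 fold change -0.30, SE 0.073, adjusted p 0.00664, edgeR), the smallest change of the group, and 66.7% of all genes changed by more in one direction or the other. With library totals as the only scaling, its log2 fold change was -0.13 and did not pass the test (adjusted p 0.143, edgeR; range of its adjusted p over the alternatives from 0.00343 to 0.143). Uap1l1 (chromosome 2, 25361489 to 25365682, minus strand) encodes a protein related to UAP1 and had 51.9 and 54.3 CPM in Ogt iKO and 24.9 and 20.7 CPM in control. None of the 4280 distinct 50-base stretches of its transcripts occurs in those of another gene, whereas 0.59% of those of Uap1 do. Uap1l1 rose 2.33-fold (log2 fold change 1.22, SE 0.101, adjusted p 1.91e-05, edgeR), the largest rise of the group. The ratio of Uap1l1 to Uap1 per exon length was 0.670 and 0.721 in Ogt iKO and 0.259 and 0.225 in control. Uap1 was the more abundant of the 2 in every library by this measure, and Uap1l1 made up 40.1% and 41.9% of their sum in Ogt iKO against 20.6% and 18.4% in control. With exons of every annotated transcript, Uap1l1 came to 48.3% and 50.2% in Ogt iKO, so which of the 2 led there depended on the length.

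Genes of salvage and of the reverse step were higher. Nagk (chromosome 6, 83794983 to 83802556, plus strand), whose kinase returns free N-acetylglucosamine to the pathway, had 280 and 266 counts in Ogt iKO and 140 and 121 in control, the fewest counts of the group in each library. It rose 1.98-fold, from 9.05 and 7.89 CPM to 16.4 and 17.1 CPM (log2 fold change 0.98, SE 0.139, adjusted p 3.40e-04, edgeR). Amdhd2 (chromosome 17, 24155833 to 24163733, minus strand), the gene of the deacetylase that turns N-acetylglucosamine-6-phosphate back, had 38.6 and 44.9 CPM in Ogt iKO and 27.5 and 29.2 CPM in control. It rose 1.47-fold (log2 fold change 0.56, SE 0.097, adjusted p 0.00111, edgeR). Its log2 fold change was 0.67 without Ogt iKO replicate 1 and 0.42 without replicate 2, the replicate in which it was higher. Of the 50-base stretches of Amdhd2 transcripts, 1.42% also occur in those of other genes. Per exon length, Amdhd2 stood at 2.88 and 3.54 times Gnpnat1, the enzyme gene of the forward reaction, in Ogt iKO and at 1.46 and 1.73 times in control. With exons of every annotated transcript, Amdhd2 was at 10.6 and 12.3 CPM per kb in Ogt iKO, against 5.78 and 5.47 for Gnpnat1. In the controls Amdhd2 was then at 7.52 and 7.98 and Gnpnat1 at 8.16 and 7.28, so the lead of Amdhd2 there depended on the length.

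**Figure D3:**
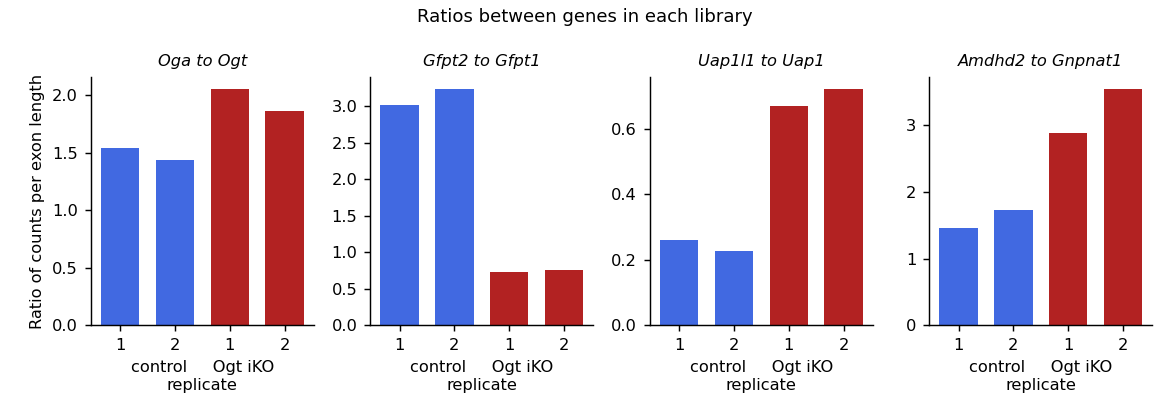
Ratio of counts per exon length between 4 pairs of genes in each library, control in blue and Ogt iKO in red, with each axis starting at 0. Gfpt2 to Gfpt1 goes from 3.01 and 3.23 to 0.735 and 0.760, and the other ratios are higher in both Ogt iKO libraries than in both controls. The Ogt counts left in Ogt iKO do not measure intact transcript.

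Levels were ranked per exon length, in CPM per kb of merged exons. In the controls Oga was first (54.6 and 54.0 in replicates 1 and 2), followed by Ogt (35.5 and 37.6). Gfpt2 (28.6 and 29.5) and Uap1 (28.7 and 27.5) overlapped, as did Pgm3 (16.5 and 16.8) and Amdhd2 (15.7 and 16.6). Gnpnat1 (10.8 and 9.61), Gfpt1 (9.49 and 9.14), Uap1l1 (7.43 and 6.19) and Nagk (3.99 and 3.48) came last, in that order and without overlap. In Ogt iKO the order was another. Amdhd2 (22.0 and 25.6) and Uap1 (23.2 and 22.5) overlapped at the top, then came Gfpt1 (20.8 and 18.7), Uap1l1 (15.5 and 16.2), Gfpt2 (15.3 and 14.2), Pgm3 (11.7 in both) and Oga (9.73 and 8.67). Gnpnat1 (7.63 and 7.22) and Nagk (7.22 and 7.56) overlapped, and Ogt was last (4.74 and 4.65). Ogt thus went from rank 2 to rank 10, and Oga from rank 1 to rank 7. For Ogt the rank in Ogt iKO is of the reads left over its full exon length, which do not measure intact transcript. With exons of every annotated transcript, Ogt and Oga had the same ranks in each group. In Ogt iKO, Gfpt1 (14.5 and 13.1), Uap1 (13.6 and 13.2) and Uap1l1 (12.8 and 13.3) then overlapped at the top and Amdhd2 (10.6 and 12.3) was the fourth. In the controls, Uap1 (16.9 and 16.2) then lay above Gfpt2 (15.1 and 15.6) without overlap. Pgm3 (9.82 and 9.97) lay above Amdhd2 (7.52 and 7.98), which overlapped Gnpnat1 (8.16 and 7.28).

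Promoter windows were found for 8 of the 10 genes (9 windows), Gnpnat1 and Uap1l1 having no entry. GGGCGG was in all 9, against 35.7% of the 32851 windows. The 9 include both Ogt windows, which overlap, and the 32851 windows were not limited to genes tested here. CpG ratios ran from 0.54 (Nagk) to 1.03 (Ogt), and 6 of the 9 windows were at or above 0.6, as were 35.8% of all windows. Gfpt2, Nagk and Amdhd2 lay below 0.6, and of these Gfpt2 fell while Nagk and Amdhd2 rose. CACGTG, the letters of an E-box, was in 1 window, that of Amdhd2, where it occurred 3 times, and in 7.15% of all windows. No window of the group held TGACGTCA (a cyclic AMP response element, 1.79% of all windows), TGATGCAA (an ATF4 composite element, 0.895%) or TGACGTGG (letters like those of an unfolded protein response element, 0.676%). Both strands were searched, and TGACGTCA and TGACGTGG share their first 6 letters.

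The supply of substrates (glucose, glutamine, uridine nucleotides and acetyl-CoA) was read from 18 further genes. In Ogt iKO 2 were higher, 11 were lower and 5 did not pass the test, with a median log2 fold change of -0.59. Called genes made up 72.2% of the list, against 65.3% of all genes tested (33.2% higher, 32.0% lower). The lower genes with the smallest p were Glul, the glutamine synthetase gene (1212 and 1115 counts against 2740 and 2427, log2 fold change -1.23, SE 0.071), and the glucose transporter genes Slc2a1 (5677 and 4724 counts against 10888 and 10010, -1.09, SE 0.068) and Slc2a3 (11617 and 9450 against 19257 and 18569, -0.93, SE 0.067). Higher were Acly, the gene of ATP citrate lyase, which makes acetyl-CoA (0.62, SE 0.055), and Cmpk1, a pyrimidine nucleotide kinase gene (0.38, SE 0.087).

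Of 14 genes at exits and side branches of the pathway, 13 were tested. Of these 6 were higher and 5 were lower, or 84.6% called against 65.3% of all genes tested (33.2% higher, 32.0% lower), and the median was 0.078, where that of all genes was 0.024. Galk2, a kinase gene for N-acetylgalactosamine, rose by 0.67 on the log2 scale (809 and 726 counts against 455 and 454) and Hexa, which encodes a lysosomal enzyme subunit, rose by 0.62. Npl, the gene of the lyase that breaks sialic acid down, had 98 and 93 counts against 269 and 296 (-1.64, SE 0.144), and Galt, a gene of galactose metabolism, was lower as well (-0.83). Nanp, with 0 to 5 counts, was too low to test.

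The last list held other enzymes and transporters that use UDP-GlcNAc. Of its 30 genes 29 were tested, with 7 higher, 6 lower and 16 not past the threshold, or 44.8% called, where 65.3% of all genes were, and the median was 0.005. Slc35d2 and Slc35d1, which encode transporters of nucleotide sugars, rose by 1.61 (262 and 224 counts against 81 and 69) and 0.83. Ext2, a gene of heparan sulfate synthesis, rose by 0.49. B3gnt2, which encodes an enzyme that extends N-acetyllactosamine chains, was lower (399 and 392 counts against 756 and 688, -0.95), as were Piga (-0.65), for GPI anchors, and Alg13 (-0.48), for N-glycan precursors. Has1, at 2 to 4 counts, was too low to test. With scaling by library totals alone, the higher genes were 12 in this list (41.4% of those tested) and 4 in the supply list (22.2%), where 42.1% of all genes tested were higher.

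**Figure D4:**
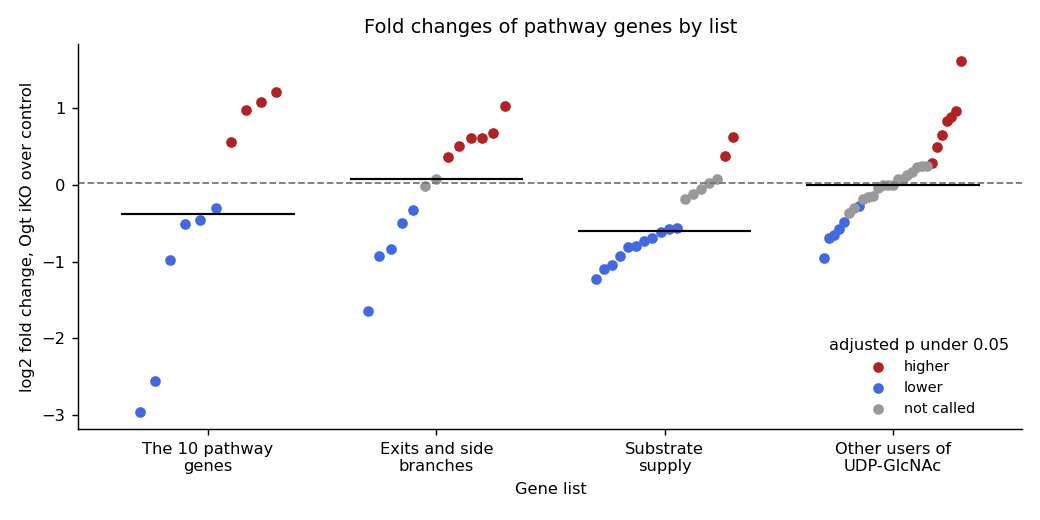
Log2 fold change, Ogt iKO over control, of each tested gene of the O-GlcNAc and hexosamine group and of the 3 lists around it; red and blue points passed the test as higher and lower, grey points did not, black lines are list medians and the dashed line is the median of all genes (0.024). The supply list has 11 of its 18 genes among the lower calls, and the list of other users has 16 grey points of 29.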

How the data were processed

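Per the labels' protocols, polyadenylated RNA was made into libraries with a stranded Illumina kit. The authors deposited 1 table of raw counts per gene symbol for each library, with no normalization, header or summary line. The submitters' processing notes name STAR, Picard and mm10; versions, annotation, counted strand and filters are not given in the sources used here. Groups and replicate numbers came from the titles.

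The quasi-likelihood test of edgeR 4.0.16 (R 4.3.3) was run on the counts, with TMM scaling, filterByExpr, 4 libraries in 1 fit, no covariate, and Benjamini-Hochberg adjustment over 14525 genes; standard errors are fold change over the root of the F statistic. Total counts ran from 14668489 to 16504204 per library, so that 3 counts, the limit a count of 0 allows, were 0.182 to 0.205 CPM, counting error only. Positions and promoters came from RefSeq (GRCm38.p6), and exon lengths (merged exons of the basic set) and overlaps from GENCODE M21, also GRCm38, the assembly mm10 names. Oga and Hexd were matched through synonyms (Mgea5, Hexdc).

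The 10 genes, the lists, the tests and the rule for named genes were chosen with earlier results of these data known. By that rule all 10 genes are named, with the 2 nearest tested genes on each side of Ogt and Oga, the 3 genes most like each of them, and the 3 called genes with the smallest p per direction of each list, of which 2 are not reported here. Styx, Dop1a, Gm15491, Nanp and Has1 were named after their values were seen. Lists were described by counts and medians, with no set test. A planned comparison of protein sequences was not made. Alternatives were other scalings (relative log expression, library totals, upper quartile), DESeq2 1.42.0, 2 other filters, a robust spread, the replicate block, an adjusted p under 0.01 and leaving out each library.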

Additional observations from a re-analysis of the deposited data

How the results depend on the processing

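Each of the 10 genes kept its direction under the 12 alternatives run for it, and 9 of them stayed past the threshold throughout. The exception was Uap1, at -0.13 with library totals alone, where 5 genes in place of 6 were lower. Under that scaling the median over all genes tested was 0.19 in place of 0.024 (log2), and 65.1% of called genes were higher in place of 50.9%. It also gave 4 higher genes in the supply list (22.2% of those tested) and 12 among other users of UDP-GlcNAc (41.4%), against 6116 of all genes tested (42.1%). Log2 fold changes over these alternatives ran from -3.01 to -2.79 for Ogt, -2.64 to -2.39 for Oga, 1.01 to 1.25 for Gfpt1 and -1.03 to -0.81 for Gfpt2. They ran from -0.55 to -0.29 for Gnpnat1, -0.54 to -0.34 for Pgm3, 1.08 to 1.39 for Uap1l1, 0.88 to 1.15 for Nagk and 0.42 to 0.72 for Amdhd2. With exons of every transcript, chosen after seeing the data, summed levels per kb were 21.6 (Ogt iKO) and 21.8 (control) for Gfpt1 with Gfpt2, against 34.5 and 38.4, and 26.5 and 22.1 for Uap1 with Uap1l1, against 38.7 and 34.9.

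The replicate numbers are shared only as numbers, and deviations of same-numbered libraries had a correlation of 0.086. With the replicate block 4922 genes were higher and 4719 lower, against 4827 and 4651, and the calls of the 10 genes were again 4 higher and 6 lower. Nagk, with the fewest counts of the 10 genes in each library, had the largest standard error (0.139). With 2 libraries in each group, groups were too small to look for single outlying values.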
